A study of Mus musculus with 4 samples.

Results

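The genes described here are those whose difference between Mef2a knockout and wild type mice was not alike in atria, the upper chambers of the heart, and in ventricles, the lower ones. For each gene the log2 ratio of Mef2a knockout to wild type in ventricles was subtracted from the same ratio in atria, and the result is called the chamber difference. It is negative where the knockout signal was lower, relative to wild type, in atria than in ventricles. A gene was included when this difference reached 1 log2 unit (2-fold) either way and when the brighter array of each chamber's pair was at or above the median of all deposited values, 5.71 on the log2 intensity scale, called the floor. Of 18781 genes with 1 symbol, 9436 passed the floor in both pairs and 41 of those (0.435%) reached the limit. The difference was negative for 29 (0.307%) and positive for 12 (0.127%). These shares describe the choice itself and support nothing.

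The 4 groups were atria of Mef2a+/+ mice, atria of Mef2a-/- mice, and ventricles of mice of the same 2 genotypes. All mice were 2 months old, untreated as far as the labels say, and of both sexes in unstated proportions. Each group was 1 array that carried RNA pooled from 7 mice. A group therefore has no replicate error, no difference could be set against a spread between animals, and every value is a description of these pools. Which part of the gene the knockout allele lacks, and whether atria and ventricles came from the same mice, are not given in the sources used here.

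MEF2A belongs to a small family of MADS-box transcription factors that bind A/T-rich sites upstream of many muscle genes. In striated muscle these factors act together with partners such as SRF, GATA and myogenic factors, and class IIa histone deacetylases hold them in check. Atrial and ventricular cardiomyocytes share most of the contractile machinery but differ in light chains, ion channels, secreted peptides and metabolism.

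The targeted gene itself showed no chamber difference. Mef2a stood at 10.32 in wild type and 10.41 in knockout atria, and at 10.28 and 10.34 in ventricles, all as log2 intensity. Its signal was not lower on either array labelled knockout, so it does not check the labels, on which each direction below rests. The other family members had chamber differences of 0.07 (Mef2b), 0.10 (Mef2c) and 0.10 (Mef2d). Chamber markers were where the labels place them. The signal summed over Nppa, Myl7, Myl4, Sln and Bmp10 was, as log2, 14.5 and 14.4 on the atrial arrays and 11.7 and 11.6 on the ventricular arrays, and over Myl2, Myl3, Irx4 and Hey2 it was 11.2 and 11.1 against 13.2 and 13.2. The knockout atria array had an interquartile range of 2.97, against 3.18 to 3.21 on the other arrays. Xist had a chamber difference of -0.19, and the Y-linked genes Kdm5d, Eif2s3y and Uty had -0.04, -0.29 and 0.01. Lung markers Sftpc and Scgb1a1 were below the floor on all 4 arrays. So were 5 of 6 skeletal muscle markers, Myh1, Myh2, Myh4, Mylpf and Actn3. The other, Myl1, was at 9.43 in wild type and 5.66 in knockout atria, and at 8.09 and 4.47 in ventricles.

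**Figure D1:**
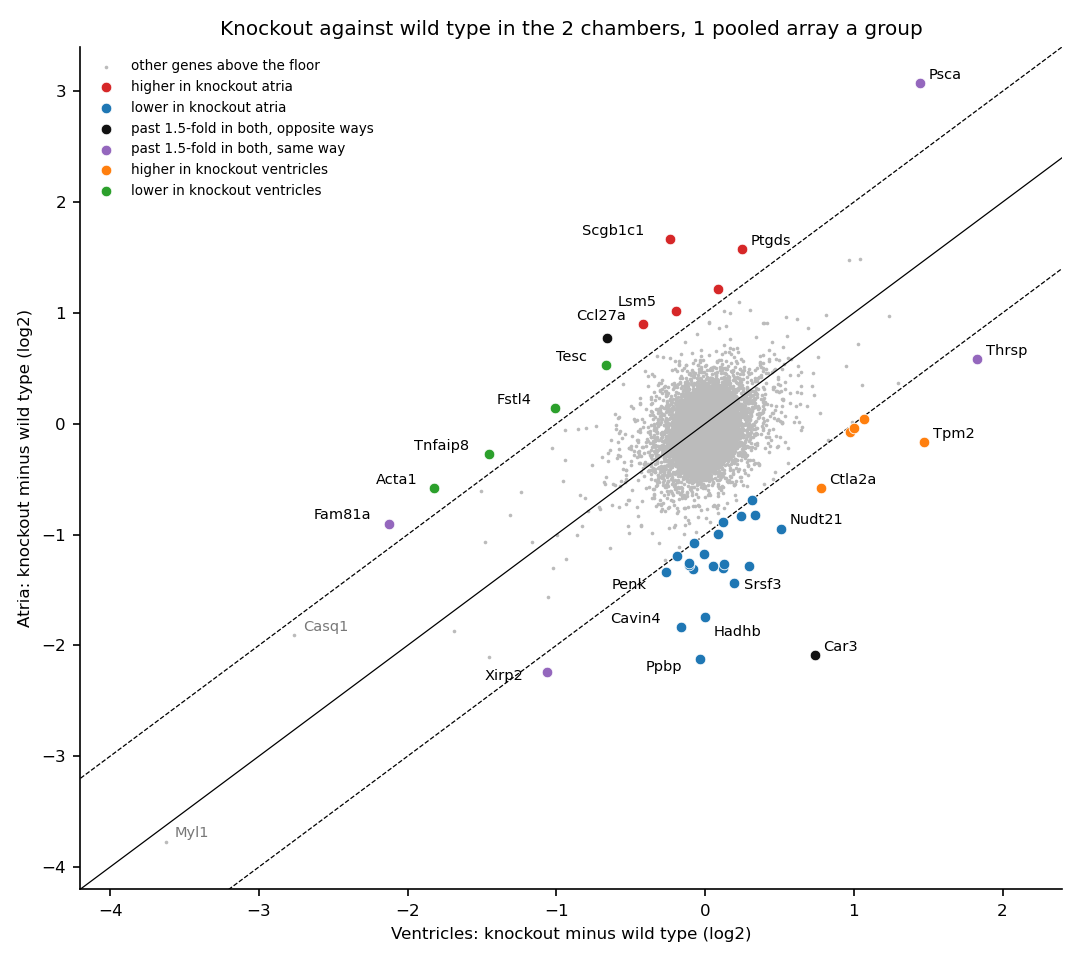
Each point is a gene above the floor, with the log2 ratio of knockout to wild type in ventricles on the x axis and in atria on the y axis. Dashed lines lie 1 log2 unit either side of the line of equal ratios, and coloured points are the 41 genes beyond them. Myl1, near the lower left corner, had large ratios in both chambers but lies on the line.

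A large response was not the same as a chamber-dependent one. Myl1, the light chain gene with the lowest ratio in each chamber, went from 9.43 to 5.66 in atria and from 8.09 to 4.47 in ventricles, a chamber difference of -0.15. Most of the 41 genes differed in 1 chamber alone, a pattern that follows from the values that chose them and supports nothing. With 1.5-fold as the limit for a knockout ratio, 21 were lower in knockout atria and within 1.5-fold in ventricles, and 5 were higher in knockout atria and within it in ventricles. In ventricles alone, 5 were higher and 4 were lower. The other 6 passed 1.5-fold in both chambers, 4 in the same direction and 2 in opposite directions. Some classes rest on small margins. In knockout atria Ctla2a was 1.498-fold and Acta1 1.494-fold lower, just within the limit, and Thrsp was 1.501-fold higher, just past it. Over the 9436 genes above the floor in both pairs, 1.7% were at least 1.5-fold lower and 0.636% higher in knockout atria, and 0.562% lower and 0.413% higher in knockout ventricles.

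Promoter sequences were looked up in RefSeq (mouse build GRCm38.p6), where 31 of the 41 genes had an entry. Among these, the MEF2 consensus site occurred in the 250 bases upstream of the start site of Xirp2 and Srsf3. The consensus was found in 2.92% of all 32851 windows of that length on either strand, and in 2.21% of the 7656 genes above the floor that had a window. The Xirp2 match lay 64 to 74 bases before the start site. The CArG box consensus, the site read by the MEF2 partner SRF, occurred upstream of Acta1 and Ppbp, and in 1.47% of windows. The sequences below show these matches in capitals for Xirp2 (plus strand, chr2:67445752-67446001) and Srsf3 (plus strand, chr17:29032410-29032659), both MEF2 matches, and for Acta1 (minus strand, chr8:123894776-123895025), a CArG match. They were picked among the genes with a match, Xirp2 and Acta1 as muscle structural genes and Srsf3 as the other carrier of a MEF2 match. Not every muscle gene with a large loss had one. Cavin4, 3.57-fold lower in knockout atria, had a window with neither a MEF2 nor a CArG match. The Srsf3 match overlaps the letters TATAAA, which occur in 12.4% of windows. Binding at these sites was not measured.
Xirp2: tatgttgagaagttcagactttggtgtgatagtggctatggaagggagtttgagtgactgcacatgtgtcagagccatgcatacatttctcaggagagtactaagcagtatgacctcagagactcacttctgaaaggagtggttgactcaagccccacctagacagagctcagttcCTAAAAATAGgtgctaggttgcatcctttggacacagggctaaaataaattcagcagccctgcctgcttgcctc
Srsf3: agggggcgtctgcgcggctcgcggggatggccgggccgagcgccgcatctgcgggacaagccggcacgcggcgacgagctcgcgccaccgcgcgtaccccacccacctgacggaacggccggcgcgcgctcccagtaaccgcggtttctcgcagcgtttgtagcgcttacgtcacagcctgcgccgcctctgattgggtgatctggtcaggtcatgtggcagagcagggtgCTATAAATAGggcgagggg
Acta1: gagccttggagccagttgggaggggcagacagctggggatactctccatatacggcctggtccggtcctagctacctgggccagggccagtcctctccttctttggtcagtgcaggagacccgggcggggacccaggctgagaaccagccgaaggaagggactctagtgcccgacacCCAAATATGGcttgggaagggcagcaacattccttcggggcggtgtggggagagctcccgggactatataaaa

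The contractile and membrane-anchoring genes of muscle divided by chamber. Xirp2, which encodes a protein that binds actin at intercalated discs and costameres, stood at 9.0 in wild type and 6.76 in knockout atria, and at 9.98 and 8.91 in ventricles (log2 intensity). It was lower in both knockout chambers, 4.73-fold in atria and 2.09-fold in ventricles, and its chamber difference was -1.18. Its relative Xirp1 had a chamber difference of -0.04. Cavin4, a coat protein of muscle caveolae, was at 6.70 and 4.87 in atria and at 8.22 and 8.06 in ventricles. The atrial ratio was 3.57-fold lower and the ventricular one 1.12-fold lower, with the knockout atria value below the floor. The caveolar genes Cavin1 and Cav3, read as relatives of Cavin4, had chamber differences of -0.04 and -0.04.

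Acta1, the skeletal type of alpha actin, showed the opposite order. It was at 7.42 in wild type and 6.84 in knockout atria and at 9.92 and 8.10 in ventricles. Its signal was 3.54-fold lower in knockout ventricles and 1.49-fold lower in knockout atria, a chamber difference of 1.24. The cardiac actin gene Actc1 had a difference of -0.02. Tpm2, the beta tropomyosin of the thin filament, was at 9.42 and 9.25 in atria and at 6.48 and 7.96 in ventricles. The knockout ventricles were 2.78-fold higher and the knockout atria 1.12-fold lower, which gave a chamber difference of -1.64. Among other tropomyosin genes, Tpm1 differed by 0.03 and Tpm4 by -0.08. Tpm3 differed by 0.89, with 5.25 in wild type and 6.16 in knockout atria and 5.80 and 5.82 in ventricles, so that the atrial pair alone parted.

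Capza1, a subunit of the protein that caps the fast-growing ends of actin filaments, was at 6.16 and 4.87 in atria and at 6.04 and 6.34 in ventricles. Of the 4 values, that of the knockout atria array was the lowest, and the chamber difference was -1.58. Capza2, the other alpha subunit of heart, and the beta subunit Capzb differed by -0.08 and 0.07. Tubb2b, a beta tubulin, had a ratio of -1.31 in atria and -0.08 in ventricles, while Tubb2a had -0.24 and -0.28. The relatives named beside the genes were chosen for their family or complex after the values of the 41 genes had been seen.

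**Figure D2:**
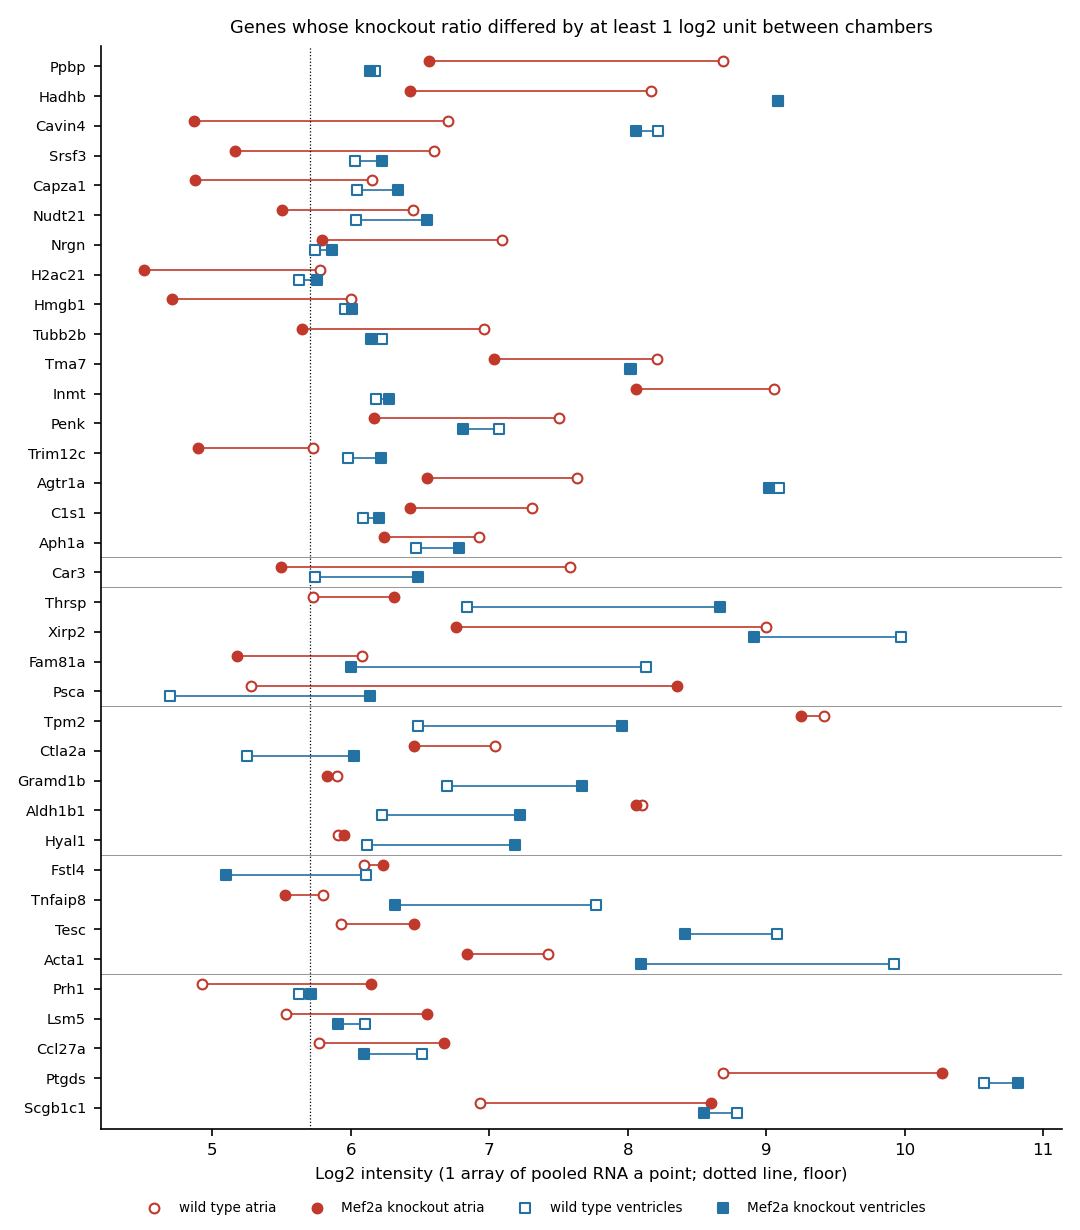
Log2 intensity of the 36 named genes on each array, with atria as circles, ventricles as squares, wild type open and knockout filled. Horizontal rules part the genes by pattern, from those lower in knockout atria alone at the top to those higher in knockout atria alone at the bottom, and the dotted line is the floor of 5.71.

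The metabolic genes among the 41 were few and also divided. Hadhb encodes the thiolase subunit of the mitochondrial trifunctional protein, which carries out the last steps of long-chain fatty acid oxidation. It stood at 8.17 in wild type and 6.42 in knockout atria, and at 9.08 on both ventricular arrays, where the deposited values were identical (as for 18 of the 9436 genes). The atrial ratio was 3.35-fold lower. Its partner subunit Hadha was at 10.73 and 10.66 in atria and 11.57 and 11.56 in ventricles, with a chamber difference of -0.07, so the signals of the 2 subunits parted on the knockout atria array.

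Car3, a carbonic anhydrase abundant in adipocytes and slow muscle, had the largest chamber difference, -2.83. It stood at 7.58 and 5.50 in atria and at 5.74 and 6.48 in ventricles, 4.26-fold lower in the knockout in one chamber and 1.67-fold higher in the other. Thrsp, which promotes lipid synthesis, was higher in the knockout in both chambers, from 5.72 to 6.31 in atria and from 6.84 to 8.67 in ventricles, with a chamber difference of -1.25. Of the lipid synthesis enzymes, Fasn differed by -0.19 and Acly by 0.03, and Scd1 by -0.72, from -0.93 in atria and -0.21 in ventricles. Acaca, below the floor in ventricles, differed by -0.85, from -0.68 in atria and 0.17 in ventricles. The defining adipocyte genes Adipoq, Plin1, Lep and Cidec were below the floor on all 4 arrays, and their summed log2 signal was between 6.76 and 6.97 on each. Of these, Lep differed by 0.63 and Adipoq by -0.62, and their part in the Car3 and Thrsp results was not tested. A lower share of a cell type and less RNA per cell cannot be told apart in such tissue RNA, here and for every gene below.

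Of the remaining enzymes, Aldh1b1, a mitochondrial aldehyde dehydrogenase, had a ratio of -0.04 in atria and 1.0 in ventricles, and Aldh2 had -0.13 and 0.16. Hyal1, a lysosomal hyaluronidase, had 0.04 and 1.07, and Hyal2 had 0.05 and 0.07. Gramd1b, which moves cholesterol from the plasma membrane to the endoplasmic reticulum, had -0.07 and 0.97. In these 3 genes the ventricular pair alone parted, with the knockout higher. Inmt, a methyltransferase of small amines, went the other way, with -1.0 in atria and 0.09 in ventricles.

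Signalling genes included receptors, ligands and calcium sensors. Agtr1a, the main angiotensin II receptor of mouse heart, had a ratio of -1.08 in atria and -0.07 in ventricles. Ptgds, the lipocalin-type prostaglandin D synthase, was at 8.69 in wild type and 10.27 in knockout atria and at 10.57 and 10.82 in ventricles. The atrial ratio was 2.98-fold higher, and the knockout atria value came near the ventricular ones. Tesc, a calcium-binding regulator of sodium-proton exchange, was at 5.93 and 6.46 in atria and 9.08 and 8.41 in ventricles, with ratios in opposite directions and a chamber difference of 1.2. Nrgn, a calmodulin-binding protein best known from neurons, was at 7.09 and 5.79 in atria and at 5.74 and 5.86 in ventricles. The wild type atria array thus stood above the other arrays, which lay within 0.12 of each other. Penk, the enkephalin precursor, had -1.34 and -0.26.

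Secreted and surface proteins held the 2 largest positive differences. Scgb1c1, a small secretoglobin, was at 6.93 and 8.60 in atria and at 8.79 and 8.55 in ventricles. The wild type atria value was the lowest, the other arrays were alike, and the chamber difference was 1.90. Psca, a lipid-anchored surface protein of the Ly6 family, was at 5.28 and 8.35 in atria and at 4.69 and 6.14 in ventricles. Both wild type arrays were below the floor, and the knockout was 8.41-fold higher in atria and 2.72-fold higher in ventricles. Ly6c1 and Ly6e, relatives of Psca, had chamber differences of 0.01 and 0.32. The mesothelial markers Msln, Upk3b and Wt1, read because Psca also occurs in mesothelium, differed by 0.14, -0.17 and -0.09, with summed log2 signals of 9.52 and 9.57 in atria and 7.70 and 7.88 in ventricles, and their part in the Psca result was not tested.

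Ccl27a, a chemokine, was at 5.77 and 6.67 in atria and 6.51 and 6.09 in ventricles, and the signs of its 2 ratios were opposite. Fstl4, of the follistatin-like family, was at 6.09 and 6.24 in atria and 6.11 and 5.10 in ventricles. Tnfaip8, a regulator of cell death, was at 5.80 and 5.53 in atria and 7.77 and 6.32 in ventricles. Fam81a was at 6.08 and 5.18 in atria and 8.13 and 6.0 in ventricles, lower in both knockout chambers and by 4.37-fold in ventricles. In the last 3 genes the ventricular ratio was the lower one. The salivary-type gene Prh1 had a ratio of 1.22 in atria and 0.09 in ventricles, from values of 4.93 to 6.14 that lie about the floor.

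The platelet gene Ppbp and the complement gene C1s1 were lower in knockout atria alone. Ppbp, the platelet chemokine precursor, was at 8.69 and 6.57 in atria and at 6.17 and 6.14 in ventricles. The wild type atria array stood above the other 3, and the chamber difference was -2.09. Of the other platelet genes, Pf4 was at 7.66 and 7.24 in atria and 6.99 and 6.88 in ventricles, a difference of -0.31. Treml1, a platelet receptor gene, went the other way, with 5.84 and 6.24 in atria and 5.93 and 5.63 in ventricles, a difference of 0.69. The red cell genes Hbb-bt and Alas2 differed by -0.66 and -0.36, with summed log2 signals of 8.27 and 7.71 in atria and 9.04 and 9.04 in ventricles. Of the 6 blood list genes above the floor, Ppbp included, 5 had negative differences and 1 positive, and their part in the Ppbp result was not tested. Over all 9436 genes above the floor, 5534 differences were negative and 3900 positive. C1s1, a protease of the first complement component, had -0.88 in atria and 0.12 in ventricles. Its partner C1ra (-0.48 and 0.22) and its relative C1s2 (-0.60 and 0.05) had ratios of the same signs. Both were below the floor on all arrays but wild type atria, so their ventricular ratios were measured near background. The fibroblast markers Col1a1, Dcn, Lum and Pdgfra, which mark cells that make complement proteins, also had negative differences, from -0.79 to -0.14. In the longer fibroblast and matrix list 21 genes had negative and 8 positive differences, the highest 0.49. Negative differences were also the more frequent over all genes, so this count is a description. The 4 markers' summed log2 signal was 12.5 and 12.1 in atria and 11.9 and 11.8 in ventricles, and their part was not tested. Ctla2a, related to the propeptide of cathepsin L, had -0.58 in atria and 0.78 in ventricles.

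RNA-processing and chromatin genes were a further group, and in those described first the knockout atria array stood lowest. Srsf3, a splicing factor of the SR family, was at 6.60 and 5.16 in atria and at 6.03 and 6.23 in ventricles, with a chamber difference of -1.63. Nudt21, which sets the site of polyadenylation as a subunit of cleavage factor I, was at 6.45 and 5.50 in atria and at 6.04 and 6.55 in ventricles. H2ac21, a histone H2A gene, was at 5.77 and 4.51 in atria and 5.63 and 5.75 in ventricles. Hmgb1, a chromatin protein, had a ratio of -1.29 in atria and 0.05 in ventricles. Relatives and partners did not share these differences, with -0.15 for Srsf2, 0.09 for Srsf1, -0.08 for Cpsf6, -0.03 for Cpsf7 and 0.19 for Hmgb3. Lsm5, a subunit of the ring that binds U6 RNA, differed the other way. It was at 5.53 and 6.55 in atria and at 6.10 and 5.90 in ventricles, and the ring subunits Lsm3 and Lsm6 differed by -0.20 and 0.15.

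Tma7 (-1.18 in atria and -0.01 in ventricles), Trim12c (-0.83 and 0.24) and Aph1a, a subunit of gamma-secretase (-0.69 and 0.31), complete the named genes. The gamma-secretase partner Ncstn differed by -0.13. The 5 genes counted without names were 3 predicted genes and 2 small nucleolar RNAs, 4 of which were lower in knockout atria alone.

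The RefSeq gene table holds entries named as pseudogenes of 4 of the 41 genes (9.76%), Hadhb, Srsf3, Hmgb1 and Tma7, against 198 of the 9436 genes above the floor (2.10%). All 4 were among the 21 genes lower in knockout atria alone. This was counted after the genes had been seen and was not tested. Probes may read such copies along with the gene, as they may for close relatives such as the H2A histones, C1s1 and C1s2, so these values are less certain. By the choice itself, the 21 genes have low values on the knockout atria array, which was the lowest of the 4 arrays for 17 of them. Whether the narrower spread of the knockout atria array plays a part was not tested.

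**Figure D3:**
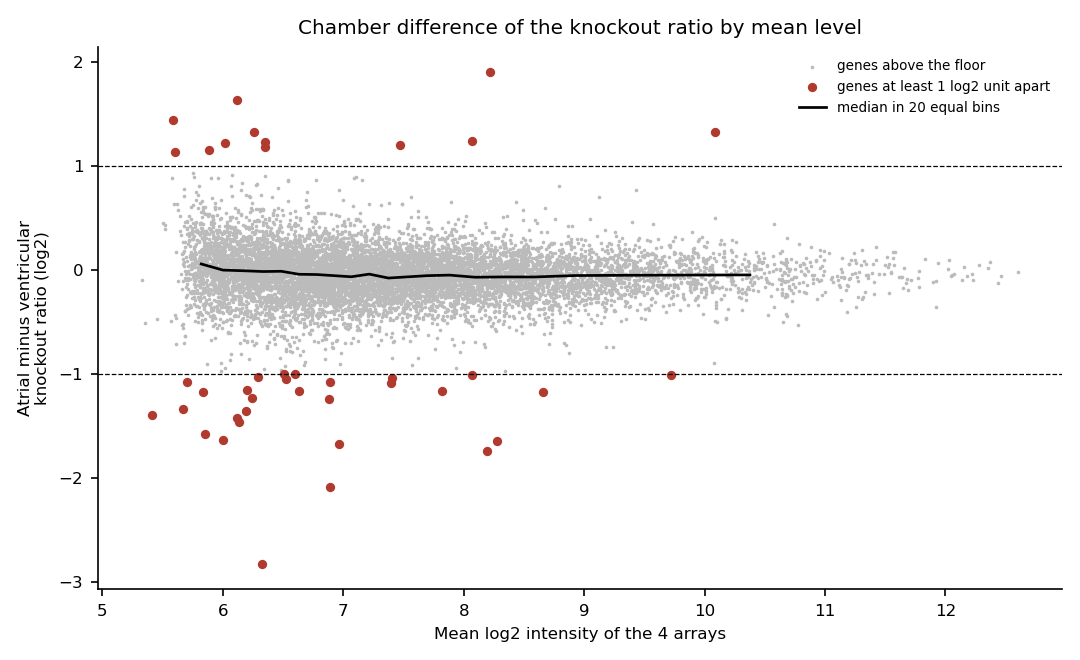
Chamber difference (y axis, log2) against the mean log2 intensity of the 4 arrays (x axis) for the 9436 genes above the floor. The black line is the median in 20 bins of equal size, and red points are the 41 genes at least 1 log2 unit apart, more of which lie at low than at high levels.

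Low signals carried more of the differences. When the genes were divided by mean level into 4 groups of 2359, the lowest had the most. There the standard deviation of the chamber difference across genes was 0.31, and 15 genes were negative and 8 positive past the limit. In the highest group it was 0.19, with 3 and 2. The 2.5 and 97.5 percentiles of all 9436 differences were -0.52 and 0.43, with a median of -0.04. Of the 41 genes, 22 were at or above the floor on all 4 arrays, and 13 were below it on the knockout atria array. For 18 of them even the brighter array of a pair was within 0.5 log2 units of the floor. Just inside the limit stood Aph1a and C1s1 (both -1.0) among named genes on the negative side and Prh1 (1.13), Fstl4 (1.15) and Tnfaip8 (1.18) on the positive side. Just outside were Akr1b8 and Myh7 (both -0.97), Gon4l (-0.96), Irx3 (0.93) and Neb (0.90).

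The chamber difference is also the change, from the wild type to the knockout pair, in how far atria and ventricles lie apart. Seen this way, the chambers were closer in the knockout for 11 of the 41 genes, further apart for 10, and in reversed order for 20. Reversed order means any change of sign, also where the chambers were nearly level in 1 pair. Examples are Hmgb1 (0.05 in wild type, atria minus ventricles) and Nrgn (-0.07 in knockout). No share over all genes stands beside these counts, and they support nothing. Among those closer in the knockout were the ventricle-rich genes Tesc (-3.15 in wild type and -1.96 in knockout, atria minus ventricles), Acta1 (-2.50 and -1.25), Fam81a (-2.05 and -0.82), Tnfaip8 (-1.97 and -0.79) and Ptgds (-1.88 and -0.55). The atrium-rich genes Tpm2 (2.93 and 1.29), Inmt (2.87 and 1.79), Ppbp (2.52 and 0.43) and Aldh1b1 (1.88 and 0.84) also came closer. Scgb1c1 went from -1.86 to 0.05. Those further apart included the ventricle-rich genes Cavin4 (-1.52 and -3.19), Agtr1a (-1.46 and -2.47), Thrsp (-1.11 and -2.36), Xirp2 (-0.98 and -2.15) and Hadhb (-0.91 and -2.66). Psca, at 0.59 and 2.22, was the gene further apart in favour of atria. Car3 changed order, from 1.84 to -0.99.

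**Figure D4:**
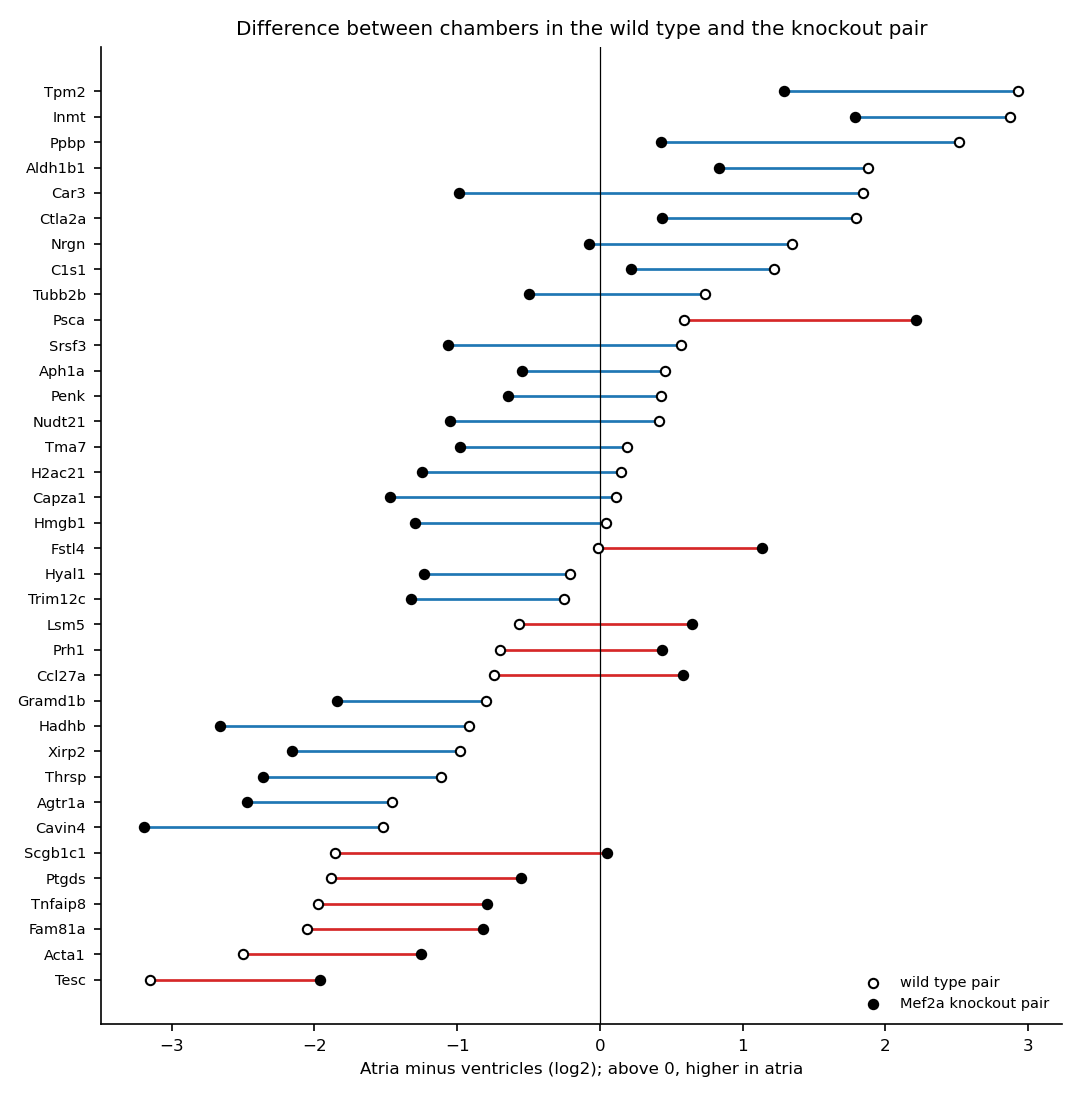
Atria minus ventricles (x axis, log2) for the 36 named genes in the wild type pair (open circles) and the knockout pair (filled circles). Blue lines run towards ventricles and red lines towards atria, as for Car3, from 1.84 to -0.99, and Psca, from 0.59 to 2.22.

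Gene lists of muscle function were then read for smaller differences. The limit here was 1.5-fold in the chamber difference, which 1.62% of the 9436 genes passed as negative and 0.89% as positive. The lists were written from general knowledge with earlier results of these data known, so their counts are descriptions. Of 12 fast or skeletal muscle isoform genes above the floor, 5 passed as positive and 0 as negative. They were Acta1, the giant thin filament gene Neb (-0.61 in atria and -1.51 in ventricles), the calsequestrin gene Casq1 (-1.91 and -2.76), the myosin-binding gene Mybpc2 (-0.22 and -1.03) and the tropomodulin gene Tmod4 (-0.61 and -1.24). In each of these 5 genes both ratios were negative and the ventricular one was the larger. The list's median ratio was -0.41 in atria and -0.62 in ventricles, and its median chamber difference of -0.07 was near that of all genes, -0.04. Costamere and intercalated disc genes gave 3 negative and 0 positive of 37, where Cavin4 and Xirp2 were joined by the integrin gene Itga7 (-0.94 and -0.24), and the median was -0.06. Of 32 sarcomere genes, 2 were negative (Tpm2 and the slow heavy chain gene Myh7, with 0.02 in atria and 0.99 in ventricles) and 4 positive (Acta1, Neb, Tpm3 and Tmod4), with a median of -0.05.

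Genes that mark the chambers followed. Of 16 ventricular identity genes, Myh7 passed as negative, and Tesc, the homeobox gene Irx3 (0.61 in atria and -0.32 in ventricles), Casq1 and the growth factor gene Fgf16 (0.05 and -0.59) passed as positive, with a median of -0.10. Of 17 atrial identity genes, Sln, which encodes the calcium pump inhibitor sarcolipin, was the 1 that passed, at 0.80 (-0.05 and -0.85), and the median was -0.04. Casq1 and Sln were also the 2 of 26 calcium handling genes that passed, and that median was -0.06. Hcn4, the main pacemaker channel, was the 1 of 21 channel genes that passed, at 0.77 (-0.04 and -0.80). With Irx3 it made 2 of 13 conduction genes. Of 20 cardiac transcription factor genes Irx3 alone passed, and the median was 0.03.

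Energy metabolism was read in 3 lists, whose counts are near the shares of all genes. Of 33 fatty acid genes Hadhb alone passed, with a median of -0.01. None of 39 oxidative phosphorylation genes (Ndufb3 furthest at -0.45, median -0.03) and none of 20 glycolysis genes (Slc2a1 furthest at 0.24, median 0.03) passed. Stress and fetal genes had 2 negative (Xirp2 and Myh7) and 1 positive (Acta1) of 20, with a median ratio of 0.06 in atria and 0.28 in ventricles and a median chamber difference of -0.13. Metallothionein and oxidative stress genes had a median of -0.19 over 25 genes, from -0.06 in atria and 0.17 in ventricles, with the quinone reductase gene Nqo1 alone past the limit at -0.68. Among 16 immediate early genes Ier3 (-0.78) and the orphan receptor gene Nr4a1 (-0.61) passed, and the median was -0.08. Among 18 hormone signalling genes Agtr1a and the orphan receptor gene Mrgprh (-2.10 and -1.45, difference -0.65) were negative and Ptgds positive, with a median of 0.03. The clock genes gave 0 of 18, with Hlf furthest at -0.41 and a median of -0.07.

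Markers of other cell types had medians between -0.43 and 0.17. The blood list was lowest at -0.43 over 6 genes, with Ppbp and Hbb-bt negative and Treml1 positive. Adipocyte and lipid synthesis genes had -0.21 over 14 genes with Car3, Thrsp and Scd1 negative, fibroblast and matrix genes -0.18 over 29 with the collagen-binding gene Lum at -0.79, and epicardial genes -0.17 over 9 with Psca positive. The tendon and cartilage list had 0.17 over 5 genes with Matn2 at -0.79. Macrophage genes had 0.16 over 16 genes (Retnla furthest, -0.49), endothelial genes 0.09 over 26 (Npr3, -0.52), and smooth muscle genes 0.09 over 16 (Notch3, 0.31), each with 0 past the limit. The smooth muscle marker Cnn1, below the floor in ventricles, had 7.88 and 6.59 in atria and 5.40 and 5.39 in ventricles. Cytosolic ribosomal protein genes, a control list, had -0.20 over 13 genes, with Rps19 past the limit at 0.60. This control median was near those of the adipocyte, fibroblast, epicardial and oxidative stress lists. Their medians are therefore not read as particular to those lists.

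**Figure D5:**
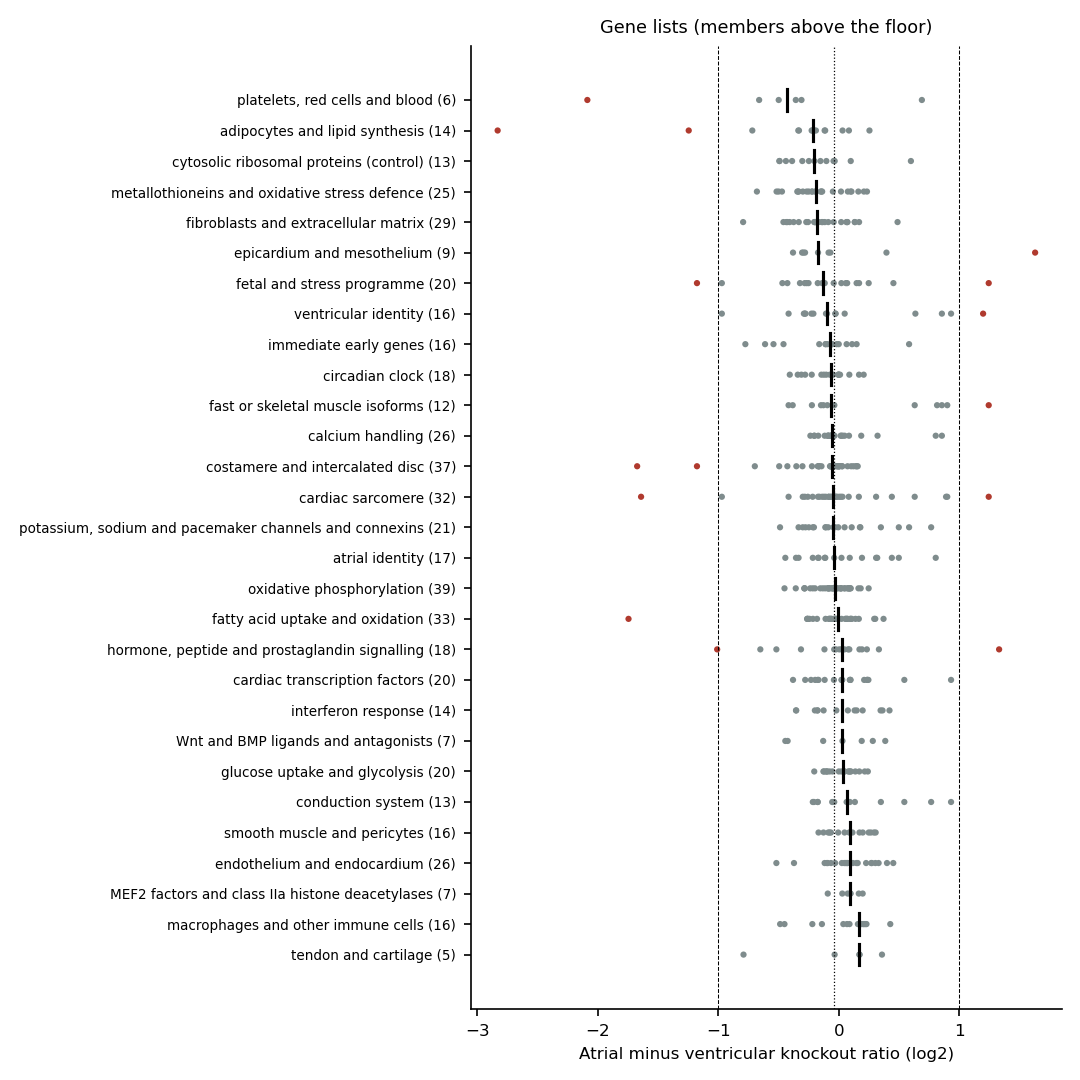
Chamber difference (x axis, log2) of each list member above the floor, for the 29 lists with at least 5 such members. Black ticks are list medians, the dotted line is the median of all 9436 genes (-0.04), dashed lines mark 1 log2 unit and the numbers in brackets count the members plotted.

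The smaller lists gave the following values. MEF2 factors and class IIa histone deacetylases had a median of 0.10 over 7 genes, with Hdac7 furthest at 0.20. Interferon response genes had 0.03 over 14 (Cxcl9, 0.42) and Wnt and BMP genes 0.03 over 7 (Dkk3, -0.44). Of the Dlk1-Dio3 imprinted cluster, 2 genes were above the floor, with Meg3 at 0.48 the furthest. Of the neural list, 2 genes were above the floor, with Scn7a at -0.25 the furthest, and of the lung, thymus and thyroid list 0 in both pairs. The thyroid marker Tg reached the floor in knockout atria alone. It was at 5.39 in wild type and 5.92 in knockout atria, and at 5.12 and 5.23 in ventricles. In 11 of the 29 lists with at least 5 members the sign of the median turned under another scaling of the arrays. These were the sarcomere, costamere, calcium, atrial identity, transcription factor, fatty acid, oxidative phosphorylation, glycolysis, hormone signalling, interferon, and Wnt and BMP lists, for which no direction is read. The floor also turned the sign of some medians. That of the epicardial list became 0.39 and that of the conduction list -0.06 with a floor of 7.27 (the 75th percentile of all values), and that of the tendon list became -0.04 where all 4 arrays had to reach the floor, so no direction is read for these either. With the higher floor the interferon and the Wnt and BMP medians became -0.24 and 0.38.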

How the data were processed

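Atria and ventricles of wild type and Mef2a knockout mice were measured on 4 arrays. The authors deposited log2 intensities, 1 per probe set, made with RMA and the affy package per the submitters' processing notes, without versions. RMA compresses differences near background. Of 21212 probe sets, 18786 had 1 symbol in the platform annotation. RefSeq (GRCm38.p6) supplied current symbols for 18775 of these through the gene number and for 6 through an accession, and 5 were left as given. For symbols with several probe sets that with the highest mean was used, which left 18781 genes.

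Ratios are differences of log2 values. No test was possible with 1 array per group. The number of arrays limits the precision. The members and lists were chosen with earlier results of these data known. Every gene past the limit was named except predicted genes, chemosensory receptors, immune receptor segments and small RNAs. The 10 furthest each way have all values, and lists name members past 1.5-fold or otherwise the furthest one. Alternatives were median centring, quantile normalization, lowess centring (statsmodels 0.14.6, fraction 0.3), other floors and other limits. Counting, in Python 3.11.15 with pandas 2.3.3, was tested on simulated data. Promoter windows were the 250 bases before the start site.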

Additional observations from a re-analysis of the deposited data

Results flagged for a closer look

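Car3 and the predicted gene Gm10334 passed 1.5-fold in opposite directions in the 2 chambers, a difference that was not tested because each group was 1 array. Car3 had a chamber difference of -2.83, with a ratio of -2.09 in atria and 0.74 in ventricles. Gm10334, named after its values were seen, had a chamber difference of 1.44, with 0.78 in atria and -0.66 in ventricles, and its wild type atria and knockout ventricles values (5.0 and 5.46) were below the floor. Ctla2a, 1.498-fold lower in knockout atria and 1.71-fold higher in knockout ventricles, fell just short of the limit in atria.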

How the results depend on the processing

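The 36 named genes kept their direction when arrays were median centred, quantile normalized or lowess centred. This supports nothing, as they were chosen at 1 log2 unit or more. Of the 36, 32 stayed past the limit under all 3 scalings. Aldh1b1, Agtr1a, C1s1 and Aph1a came to between -1.0 and -0.94 under the last 2. Of 41 genes, 41, 36 and 35 were shared with the 46, 37 and 36 genes that passed under the 3 scalings. The floor and the limit mattered more. There were 65 negative and 58 positive genes with no floor, 6 and 3 when the floor was set at 7.27, the 75th percentile, and 17 and 5 where all 4 arrays had to reach the floor. The counts were 153 and 84 at a 1.5-fold limit and 7 and 2 at 1.5 log2 units. With probe sets lacking 1 symbol included, a choice made after seeing the data, 46 were negative. No replicate could be left out. No paired analysis was possible because each group was 1 array. The lung, thymus and thyroid list had 0 members above the floor in both pairs, so its median has no value to compare. Depth is not known for arrays, and signals near the floor limit the low genes.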

Other observations

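A further 26 genes reached 1 log2 unit but missed the floor in exactly 1 of the pairs, out of 890 genes of that kind, so that 1 of their ratios was measured near background. The largest positive differences were those of Lgi1, which encodes a secreted synaptic protein (2.94), Ppp1r17 (2.67), the glycosyltransferase gene B3galt2 (2.28), Cyfip2, a regulator of actin assembly (1.83), and the prolyl hydroxylase gene P4ha3 (1.31). Lgi1 was at 4.13 in wild type and 3.63 in knockout atria, and at 8.12 and 4.68 in ventricles, so its loss was read in the chamber where it stood above the floor. B3galt2 had the same form, with 4.05 and 3.86 in atria and 7.4 and 4.93 in ventricles. The largest negative differences were those of Prrg4 (-1.81), the cytochrome gene Cyp2e1 (-1.80), the prostaglandin F receptor gene Ptgfr (-1.75), the endocytic receptor gene Cubn (-1.62) and the neuropeptide Y receptor gene Npy1r (-1.59). Ptgfr was at 7.79 and 5.77 in atria and 4.93 and 4.66 in ventricles, and Cubn at 4.73 and 4.88 in atria and 5.16 and 6.93 in ventricles. Of the 26, 19 missed the floor in ventricles and 7 in atria, against 614 and 276 of the 890 genes of that kind.

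Of the 2426 probe sets without exactly 1 symbol, 975 were above the floor in both pairs. Of these, 17 had a chamber difference of at least 1 log2 unit below 0 and 0 had one above it, against 29 and 12 of the 9436 named genes. Below the floor in both pairs were 8455 genes, of which 56 reached the limit.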
